A study of Homo sapiens with 414 samples.

Results

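Control LNCaP cells that carried a cycling expression program were compared with the other control cells of the same batch. LNCaP is an epithelial line from a human prostate carcinoma that depends on androgen. Cells of the control arm had received a non-targeting siRNA, and those of the knockdown arm an siRNA against SULT2B1, a sterol sulfotransferase. At 48 h, single live cells were captured on microfluidic chips in 3 batches, and their cDNA was sequenced over its full length, without molecular identifiers. The classes were chosen by measured expression: a control cell was called cycling when at least 3 of 6 genes, MKI67, TOP2A, CCNB1, CDK1, UBE2C and TPX2, reached 10 CPM (reads scaled to the same total in every cell). By this rule 117 of 209 control cells were cycling and 92 were not, out of 401 cells in the table. All control cells came from the same line and received the same non-targeting siRNA, and the labels do not say whether the 3 batches were separate cultures, so each p-value measures the spread between these batches.

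A dividing cell copies its DNA in S phase and segregates it in mitosis, and each step has its own set of transcripts. E2F factors, released from the RB family, drive genes for DNA replication. The MuvB complex with B-MYB and FOXM1 drives the later genes for the spindle, the kinetochore and cytokinesis, and holds them silent in resting cells together with the RB-like proteins. Many late genes carry the sequence TTTGAA, the cell cycle homology region, next to CCAAT boxes near their start.

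The promoters of 6 late genes are shown first because the comparison turns on genes of this kind. They are 6 of 30 list members that hold TTTGAA and were called higher in cycling cells by the edgeR fit without the batch block, taken in order of fitted log2 fold change. Each line gives 170 bases before and 30 bases from the RefSeq start, 5′ to 3′ on the gene's strand, in GRCh38.p14. Capitals mark TTTGAA and CCAAT on either strand (TTCAAA and ATTGG on the other strand).
KIFC1, a minus-end kinesin (chr6:33391653-33391852, plus strand): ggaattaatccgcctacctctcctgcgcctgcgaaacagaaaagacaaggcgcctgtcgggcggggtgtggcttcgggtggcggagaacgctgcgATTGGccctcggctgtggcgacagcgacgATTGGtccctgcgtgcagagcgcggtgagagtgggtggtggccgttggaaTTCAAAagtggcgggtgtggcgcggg
HJURP, the chaperone of centromeric histone CENP-A (chr2:233854506-233854705, minus strand): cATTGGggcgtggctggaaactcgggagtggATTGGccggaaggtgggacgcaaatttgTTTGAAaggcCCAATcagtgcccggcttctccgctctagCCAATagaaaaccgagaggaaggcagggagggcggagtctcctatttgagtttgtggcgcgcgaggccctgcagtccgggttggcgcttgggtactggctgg
SHCBP1, a midbody protein (chr16:46621350-46621549, minus strand): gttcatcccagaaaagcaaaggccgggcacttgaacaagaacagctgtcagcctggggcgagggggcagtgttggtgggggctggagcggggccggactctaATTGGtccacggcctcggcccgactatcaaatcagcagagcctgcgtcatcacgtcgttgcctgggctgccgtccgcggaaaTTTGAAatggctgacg
CKAP2L, a spindle protein (chr2:112764580-112764779, minus strand): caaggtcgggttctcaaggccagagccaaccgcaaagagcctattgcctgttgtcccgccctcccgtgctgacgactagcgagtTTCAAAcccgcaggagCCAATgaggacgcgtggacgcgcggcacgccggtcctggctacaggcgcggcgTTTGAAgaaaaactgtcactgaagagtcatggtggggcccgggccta
CEP55, the abscission factor of the midbody (chr10:93496442-93496641, plus strand): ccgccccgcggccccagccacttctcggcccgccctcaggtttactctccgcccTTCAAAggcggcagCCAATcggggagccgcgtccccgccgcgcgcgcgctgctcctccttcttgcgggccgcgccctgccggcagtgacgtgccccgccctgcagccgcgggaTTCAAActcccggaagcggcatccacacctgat
ESPL1, the separase that opens cohesin (chr12:53268129-53268328, plus strand): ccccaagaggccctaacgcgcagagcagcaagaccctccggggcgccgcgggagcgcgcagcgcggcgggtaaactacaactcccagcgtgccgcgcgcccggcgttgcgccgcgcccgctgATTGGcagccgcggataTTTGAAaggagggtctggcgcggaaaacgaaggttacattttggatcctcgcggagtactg

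The promoters of 3 replication genes are set beside them, chosen after the motif counts were seen. They are the replication list members called higher in the same fit that hold an E2F word, with the largest fold changes. Capitals mark the E2F words TTTCCCGC or TTTGGCGC and CCAAT, on either strand.
GINS2, a subunit of the replicative helicase (chr16:85688925-85689124, minus strand): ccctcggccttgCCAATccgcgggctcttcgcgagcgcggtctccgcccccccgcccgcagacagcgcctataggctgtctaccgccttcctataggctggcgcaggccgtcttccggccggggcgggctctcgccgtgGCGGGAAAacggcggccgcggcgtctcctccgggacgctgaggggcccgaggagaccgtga
GINS1, another subunit of that helicase (chr20:25407503-25407702, plus strand): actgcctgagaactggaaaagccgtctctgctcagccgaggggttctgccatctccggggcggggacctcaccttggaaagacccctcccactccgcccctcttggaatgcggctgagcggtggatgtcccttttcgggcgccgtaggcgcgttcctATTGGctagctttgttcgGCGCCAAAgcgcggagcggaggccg
DTL, the substrate receptor that clears licensing factors in S phase (chr1:212035578-212035777, plus strand): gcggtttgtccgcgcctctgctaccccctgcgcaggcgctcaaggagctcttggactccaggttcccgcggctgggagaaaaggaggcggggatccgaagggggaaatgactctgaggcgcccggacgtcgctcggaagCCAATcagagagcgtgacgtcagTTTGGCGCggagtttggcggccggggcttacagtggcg

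Over windows of 300 bases (250 before and 50 after the start), TTTGAA stood in 58 of 106 promoters of the 7 mitosis lists (54.7%) and in 3 of 63 promoters of the replication, nucleotide and repair lists (4.76%). The E2F words went the other way, with 9 of 106 (8.49%) against 23 of 63 (36.5%). Among 32 promoters of DNA replication genes, 18 held an E2F word and 0 held TTTGAA. Of 27 kinesin and spindle promoters, 18 held TTTGAA and 16 held TTTGAA together with CCAAT. Across all 27305 promoters of the RefSeq table, TTTGAA stood in 15.4%, CCAAT in 35.7% and an E2F word in 2.31%. The 10641 promoters of genes tested here gave 1069 promoters for TTTGAA, 37.7% for CCAAT and 3.65% for an E2F word. Both sets of genes were higher in the same class of cells, as described next. A match is a description of the letters in the window.

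The class rule rests on 6 genes, whose values are given without a test. CDK1, the mitotic kinase, stood at 1140.3, 934 and 869.7 CPM in the cycling libraries of batches 1, 2 and 3 and at 37.6, 102 and 24.3 in the others. CCNB1, its cyclin partner, stood at 535, 646 and 406 CPM against 46.1, 93.3 and 17.6. TOP2A, which untangles replicated DNA, stood at 378, 263 and 261 CPM against 6.79, 11.6 and 0.618. A library here is the sum of all reads of 1 class in 1 batch, scaled by library size and the TMM factor of edgeR. MKI67, the Ki-67 antigen, had 212, 159.9 and 162 CPM against 5.36, 1.73 and 12.5, and UBE2C, the ubiquitin carrier of the anaphase-promoting complex, had 174, 197 and 122 against 1.24, 3.47 and 3.75. TPX2, a spindle assembly factor, had 188, 213 and 151 CPM against 18.2, 12 and 2.92. Of the 209 control cells, 69 carried all 6 genes and 24 carried none. Just inside the limit, 16 cells carried 3 of the genes, with a median summed level of 414 CPM. Just outside it, 25 cells carried 2, with a median of 151 CPM, and the ranges overlapped (84.9 to 1153 CPM against 27.5 to 801 CPM).

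Cycling cells made up 37 of 76 control cells in batch 1 (48.7%, 95% exact binomial interval 37.0 to 60.4), 51 of 66 in batch 2 (77.3%, 65.3 to 86.7) and 29 of 67 in batch 3 (43.3%, 31.2 to 56.0). The mean share was 56.4% ± 18.3 (SD, n = 3 batches). Batch 2 stood above the other 2 batches, and it left 15 cells in the other class.

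The label of the class was set against 10 genes of S phase. At least 5 of these 10 reached 10 CPM in 30 of 37, 35 of 51 and 22 of 29 cycling cells, and in 0 of 39, 3 of 15 and 0 of 38 other cells. The mean share was 75.2% ± 6.25 (SD, n = 3 batches) in cycling cells and 6.67% ± 11.5 in the others. Of the 117 cycling cells, 63 reached the limit both for the S phase genes and for 10 late mitotic genes (PLK1, AURKA, CDC20, CCNB2, BUB1, KIF20A, CENPE, CENPA, PTTG1 and CDC25C, chosen after values were seen). A further 24 reached it for the S phase genes only, 11 for the late genes only, and 19 for neither. None of the 92 other cells (0) reached it for the late genes. For counting error only, this allows a share of up to 7.69%, 20% and 7.89% in batches 1, 2 and 3. Both sets are cell cycle genes like the 6 of the rule, so low counts in other cells are not independent of it. The class of 117 cells held cells with S phase transcripts as well as mitotic ones, and it is called cycling here rather than mitotic.

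**Figure D1:**
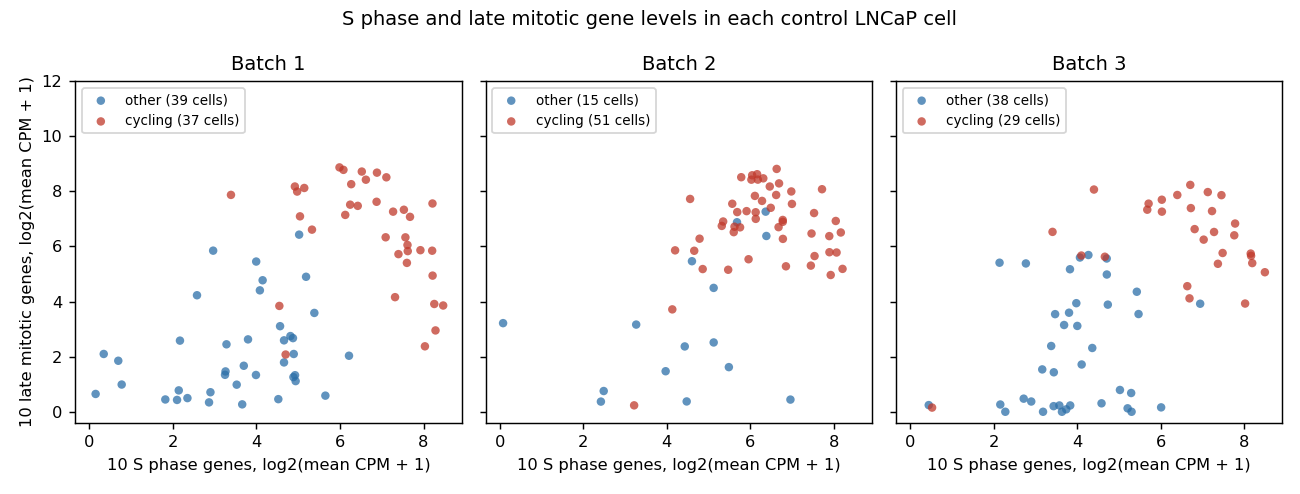
Each point is 1 control cell, in 3 panels by batch, with the mean level of 10 S phase genes on the x axis and of 10 late mitotic genes on the y axis, both as log2(mean CPM + 1). The 117 cycling cells (red) lie toward high values on one or both axes and the 92 other cells (blue) toward low values, with some overlap in each batch.

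RNA quality moved with the class. Cycling cells had reads in a median of 9134, 8842 and 8950 genes in batches 1, 2 and 3, and other cells in 7803, 8608 and 8193.5. Median mitochondrial reads made up 5.95%, 6.01% and 5.60% of a cycling cell's reads and 11.1%, 7.95% and 6.51% of another cell's. Cells above 20% mitochondrial reads numbered 4, 5 and 2 among cycling cells and 17, 3 and 4 among the others, so that 17 of the 24 such cells of the other class lay in batch 1. The difference in genes with a read was 774 ± 549 (SD, n = 3) and went the same way in each batch (exact sign-flip test within batches, two-sided, p = 0.25, the smallest p that 3 batches allow). For the mitochondrial share it was -2.66 percentage points ± 2.20 (the same test, p = 0.25). Median reads per cell differed by -52833 ± 160818 (SD, n = 3), with both signs among batches (exact p = 0.75). The part of these differences in the results below was not tested, and the number of genes called is given also without the cells above 20%.

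**Figure D2:**
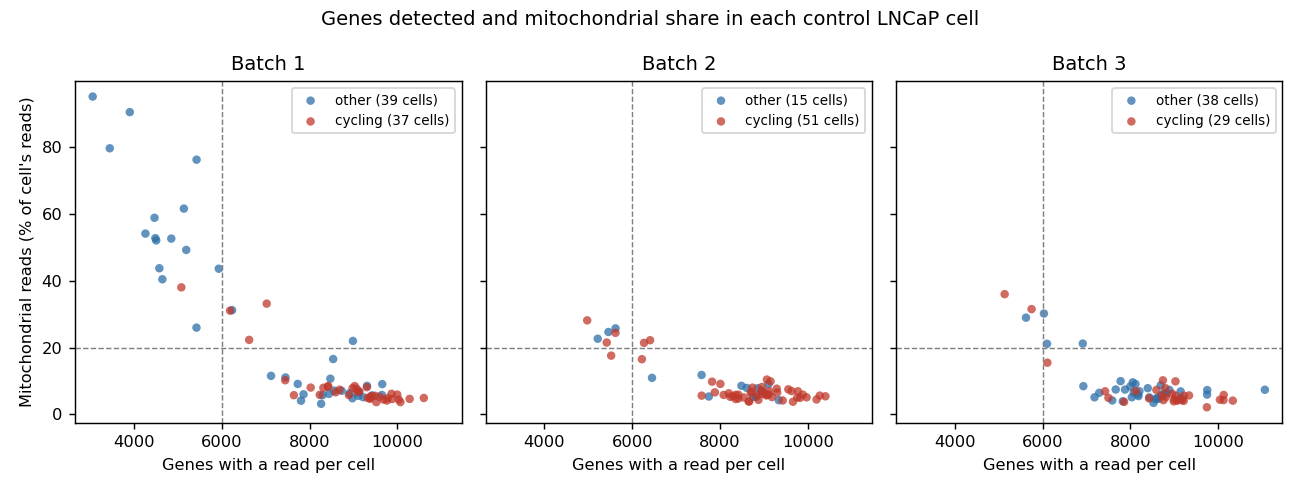
Each point is 1 control cell, with genes with a read on the x axis and the mitochondrial share of its reads in percent on the y axis, in 3 panels by batch. The dashed lines mark 6000 genes and 20%, and the densest group beyond them holds other cells (blue) of batch 1.

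The siRNA target gave the check of the labels. SULT2B1 had a read in 15 of 76, 14 of 66 and 14 of 67 control cells, and in 2 of 66, 2 of 65 and 0 of 61 knockdown cells, where a count of 0 allows a share of up to 4.92%. Among control cells it stood at 1.85, 1.65 and 1.82 CPM in the cycling libraries and 2.27, 0.658 and 5.77 in the others. The groups overlapped, and the log2 fold change of -0.24 (SE 1.04) did not pass edgeR's quasi-likelihood test (adjusted p = 0.973).

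The 6 summed libraries held 16355694 to 56900815 reads, from control cells with 193281 to 2353816 reads each. Across 17147 genes, 1 was called between the classes in the fit with the batch as a block (edgeR's quasi-likelihood test, Benjamini-Hochberg adjusted p under 0.05; 0.00583% of genes). At an unadjusted p under 0.05 there were 1694 genes, 1086 higher and 608 lower in cycling cells. Without the replicate block, the same test called 138 genes, 133 higher (0.776%) and 5 lower (0.0292%). With the block but without the cells above 20% mitochondrial reads it called 18, 17 higher and 1 lower. DESeq2 with batch in its design called 1208 genes. Of the 16151 genes with an adjusted p in both tools, it called 796 higher (4.93%) and 356 lower (2.2%). In all 138 genes called without the block, the difference had the same direction in each batch and an unadjusted p under 0.05 with the block. All 138 were also called by DESeq2. These genes were picked as strongly separated in the same 6 libraries, so this agreement is not independent support for the calls. A simpler description counts genes whose 3 cycling libraries all lie above, or all below, the 3 other libraries. These numbered 1739 (10.1%) and 1194 (6.96%). A gene almost absent from other cells could pass the filter on low counts only through the cycling libraries, so counts over list members describe those tested. Since the classes were cut from cell cycle genes of the same cells, the higher level of other cell cycle genes is not independent evidence. Fewer cells of a type within a library and less RNA per cell cannot be told apart in these sums.

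KPNA2 was the 1 gene called with the block. It encodes importin alpha 2, which carries proteins into the nucleus and holds spindle assembly factors such as TPX2 inactive, and lies on chromosome 17 from 68035519 to 68046842 on the plus strand (GRCh38, GENCODE 29). Its level was 799, 1031 and 471 CPM in the cycling libraries of batches 1, 2 and 3 and 107, 149 and 70.1 in the others. The groups did not overlap, and the lowest cycling library exceeded the highest other library. KPNA2 rose in all 3 batches, with a fitted log2 fold change of 2.81 ± 0.10 (SE) and an adjusted p of 0.0318 by edgeR's quasi-likelihood test. After thinning every cell to 100000 reads, with no cell left out, a KPNA2 read remained in 94.1% ± 4.21 (SD, n = 3) of cycling cells and 64.7% ± 2.74 of other cells, against 97.7% and 87.4% before thinning. Leaving out any 1 batch ended the call (0 genes called each time, with 1098 to 1522 at an unadjusted p under 0.05). The annotation lists 3 pseudogenes of KPNA2, between which the authors' counting could split reads.

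Since the naming rule gave only KPNA2 with the block, it was applied also to the calls without the block, a choice made after the values were seen. It then named the 12 largest of 130 rises among genes that averaged at least 5 CPM, and all 5 falls. Their adjusted p-values with the block ranged from 0.0838 to 0.203, and each is given as called without the block only.

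The 12 genes that rose were close to absent from other cells as the rule cut them. For TTK, CDC45, E2F7, HJURP, SHCBP1, CKAP2L and MCM10 the size of the difference depended on the limit. With at least 4 of the 6 genes, the log2 fold change with the block was 6.65 against 10.30 for TTK. For CDC45 it was 4.05 (SE 1.70) against 8.64. For E2F7 it was 5.85 against 10.44, for HJURP 5.82 against 8.85 and for SHCBP1 5.63 against 8.11. CKAP2L had 5.80 against 8.05 and MCM10 had 5.26 against 7.96. The fold change moved little for NEIL3 (9.91 against 9.99) and E2F8 (9.20 against 9.02). TTK, the kinase that starts the spindle checkpoint, had 125, 82 and 76.8 CPM in the cycling libraries and 0.212, 0 and 0.0213 in the others (log2 fold change without the block 10.09, SE 0.82, adjusted p = 0.00576). HJURP had 66.7, 50.8 and 45.8 CPM against 0.273, 0 and 0.0852 (8.66, SE 0.80, adjusted p = 0.00809). Every cycling library lay far above every other library for both. CDC45, a core part of the replicative helicase, had 45.6, 53.6 and 35.3 CPM against 0.242, 0.12 and 0.0213 (adjusted p = 0.00832). MCM10, a helicase activator, had 103, 66.1 and 119.8 CPM against 0.939, 0.359 and 0.107 (adjusted p = 0.0125). Both act in S phase, and for both the libraries of the classes did not overlap. SHCBP1 had 123, 53.9 and 59.2 CPM against 0.667, 0.359 and 0.0426 (adjusted p = 0.0202), and CEP55 had 57.9, 51.7 and 39.9 against 0.212, 0.838 and 0.0213 (adjusted p = 0.033). CKAP2L had 153, 113 and 60.7 CPM against 0.667, 0.897 and 0.0426 (adjusted p = 0.0231). Among cycling libraries, these 3 late genes were highest in batch 1. AURKB, the kinase of the chromosomal passenger complex, had 71.6, 63.4 and 43.2 CPM against 0.848, 0.299 and 0 (adjusted p = 0.0487). RTKN2, the rhotekin paralog, had 47.9, 29.1 and 21.5 CPM against 0.273, 0.239 and 0.192 (adjusted p = 0.00494).

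The atypical E2F repressors and the DNA glycosylase NEIL3 completed the 12. E2F7 had 38.4, 21.5 and 27.9 CPM in the cycling libraries and 2 reads in all other cells, a ratio of 1482 with an exact 95% counting interval of 409.8 to 12238 (adjusted p = 0.00876). NEIL3 had 33.9, 18.2 and 17.9 CPM and also 2 reads in other cells, a ratio of 1201 (332 to 9925, adjusted p = 0.00494). E2F8 had 19.3, 18.5 and 27 CPM and 5 reads in other cells, all in batch 1 (adjusted p = 0.0309). These intervals cover counting error only, since reads without molecular identifiers are not independent molecules. After thinning, an E2F7 read remained in 30.6% ± 4.84 (SD, n = 3) of cycling cells, so most of them held none at that depth.

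The 5 genes that fell without the block were well expressed in both classes. TMPRSS2, an androgen-driven protease on chromosome 21 from 41464551 to 41531116, had 84.9, 71.7 and 92.6 CPM in the cycling libraries and 359, 198 and 268 in the others (log2 fold change without the block -1.73, SE 0.24, adjusted p = 0.0309). SLC4A4, a sodium bicarbonate cotransporter, had 83.8, 72 and 74.5 CPM against 279, 163 and 203 (-1.49, SE 0.22, adjusted p = 0.0383). For both the highest other library was that of batch 1. SLC30A4, a zinc exporter, had 816, 1304 and 936 CPM against 2574, 2066 and 2591 (adjusted p = 0.0423). KMT2C, a histone methyltransferase of enhancers, had 183, 201 and 176 CPM against 326, 353 and 390.0 (adjusted p = 0.0314). PON2, an intracellular lactonase, had 246, 289 and 254 CPM against 454, 468 and 442 (adjusted p = 0.0408). SLC4A4, SLC30A4, KMT2C and PON2 overlap genes of the opposite strand in the annotation, among them HMGN2P46 for SLC30A4. Reads of overlapping genes cannot be told apart where counting ignores strand. For all 5 the libraries of the classes did not overlap. Without the cells above 20% mitochondrial reads their log2 fold changes with the block were -1.87, -1.43, -1.37, -0.65 and -0.75, against -1.69, -1.45, -1.27, -0.93 and -0.79 with them.

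**Figure D3:**
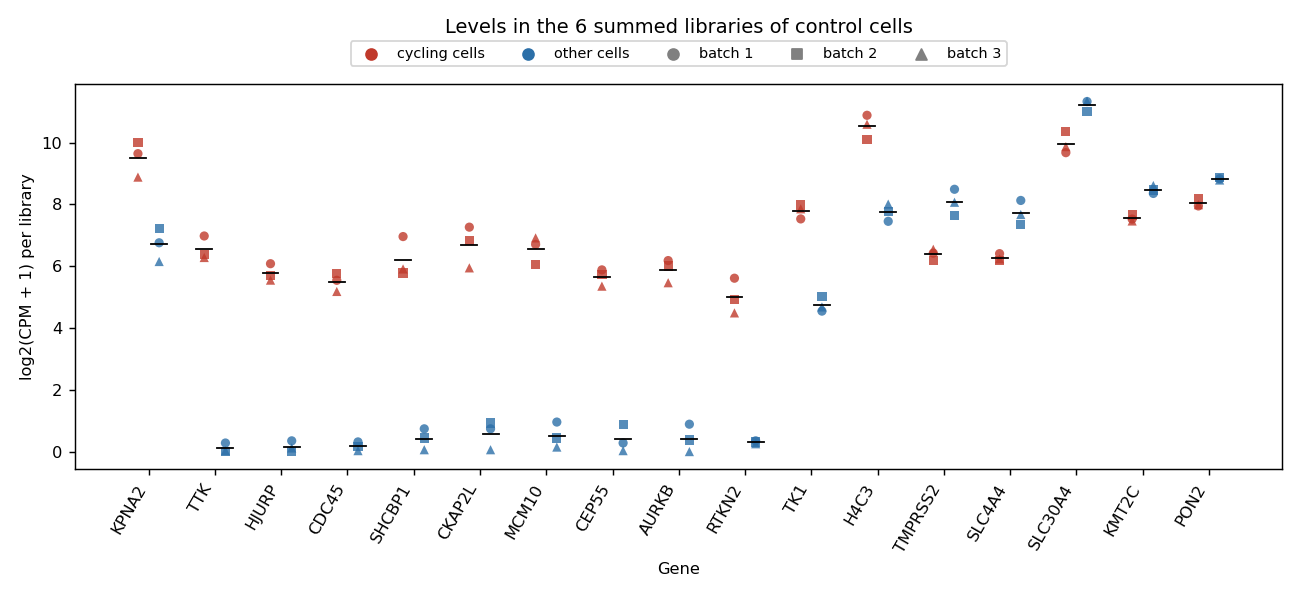
Levels of 17 genes in the 6 summed libraries, as log2(CPM + 1), with cycling libraries in red, other libraries in blue, a marker shape for each batch and a bar at the mean of each group. The first 12 genes, from KPNA2 to H4C3, lie higher in all 3 cycling libraries. They are not the 12 rises of the text, since KPNA2, TK1 and H4C3 are shown and E2F7, E2F8 and NEIL3 are not. The last 5, from TMPRSS2 to PON2, lie lower in all 3.

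Genes of the cell cycle lists were higher in cycling cells as a body. Of 233 members tested in 13 lists, 78 rose without the block and 192 lay higher in all 3 cycling libraries, beside 0.776% and 10.1% of all genes. The median log2 fold change of all genes tested was 0.05. With the block, KPNA2 alone among them was called. In the lists below, counts at an unadjusted p under 0.05 are those of the fit with the block, where 1694 of 17147 genes had one. Over all genes, 6.96% lay lower in all cycling libraries, and DESeq2 called 4.93% higher and 2.2% lower. Fold changes and standard errors given from here on are those with the block, and each adjusted p names its fit.

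Regulators of entry into mitosis came first. Of 15 cyclins and CDK regulators tested, 4 rose without the block, 15 lay higher in all cycling libraries, and the median log2 fold change was 2.62. CKS2, a small CDK-binding protein, had 668, 718 and 524 CPM against 132, 183 and 111 (log2 fold change 2.18, SE 0.12, adjusted p = 0.0544 with the block and 0.0125 without). CDC25B, the phosphatase that activates CDK1, had 24.3, 20.3 and 16.4 CPM against 1.79, 0.897 and 1.07 (adjusted p = 0.0231 without the block). CDKN3, a CDK phosphatase, had 289.9, 379 and 227 CPM against 34.9, 78.9 and 57.4 (adjusted p = 0.0309 without the block). Of 18 mitotic kinases and checkpoint proteins, 10 rose without the block and 17 lay higher, with a median of 4.31. Beside TTK and AURKB, NEK2, a centrosome kinase, had 93, 83.6 and 63.8 CPM against 1.58, 0.718 and 0.17. SGO1, which shields cohesin at centromeres, had 69.4, 47.8 and 44.9 CPM against 1.0, 0.598 and 0.149. Both were called without the block (adjusted p = 0.0209 and 0.0171).

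Spindle and kinetochore genes lay higher in every list member tested. All 27 kinesins and spindle proteins were higher in all cycling libraries, 14 rose without the block, and the median log2 fold change was 4.85. KIF20A, a kinesin of the central spindle, had 92.4, 116 and 76 CPM against 1.79, 0.359 and 1.83, and KIF4A, the chromokinesin, had 49.9, 62.1 and 34.7 against 0.152, 1.44 and 0.213. KIF20A overlaps BRD8 and CDC23, HJURP overlaps MROH2A and CKAP2L overlaps NT5DC4 in the annotation, and reads of overlapping genes cannot be told apart where counting ignores strand. KIFC1 had 4.13, 7.82 and 16 CPM in the cycling libraries and 1 read in all other cells (ratio 913, exact 95% counting interval 164 to 36085). Among kinesins named, KIFC1 was the one highest in batch 3. All 24 kinetochore and passenger proteins were also higher, with 8 called without the block and a median of 3.93. KNL1, the scaffold that recruits the checkpoint, had 175, 116 and 114 CPM against 0.818, 2.33 and 1.17 (adjusted p = 0.00494 without the block). NDC80, of the complex that grips microtubules, had 243, 179 and 164 CPM against 0.576, 1.85 and 4.03 (adjusted p = 0.0147 without the block). NUF2, its partner, had 161, 87.1 and 85 CPM against 3.03, 0.838 and 0.298 (adjusted p = 0.0309 without the block).

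Chromosome structure and exit from mitosis showed smaller shifts for some members. Of 13 condensin and cohesin subunits, 5 rose without the block and 10 lay higher, with a median of 2.31. SMC4 had 174, 145 and 178 CPM against 15.1, 20.3 and 21.1 and SMC2 had 281, 237 and 229.7 against 58.3, 67.2 and 31.7. NCAPD3, the condensin II subunit, had 131, 99.7 and 81.9 CPM against 21.8, 14.5 and 15.1, and NCAPD2, its condensin I counterpart, had 108, 96.8 and 81.9 against 22.8, 13.4 and 22.9. All 4 were called without the block (adjusted p from 0.00494 to 0.0245). Of 14 members of the anaphase-promoting complex list, 3 rose without the block and 8 lay higher, with a median of 1.98. CDC20, the activator of that complex, had 42.7, 66.6 and 53.8 CPM against 0.273, 1.5 and 0.256. ESPL1 had 14.3, 12 and 23.1 CPM against 0.182, 0 and 0.149, and FBXO5, the inhibitor EMI1, had 22.4, 29.4 and 23 against 1.55, 2.03 and 3.11. PTTG1, securin, had 339, 361 and 290.2 CPM against 58.4, 148 and 65.8 and did not pass the test without the block (adjusted p = 0.0934). Of 11 cytokinesis genes, 5 rose without the block and 9 lay higher, with a median of 3.93. ANLN, anillin of the contractile ring, had 134, 98.3 and 62.8 CPM against 7.58, 1.97 and 2.15. ARHGAP11A, a GTPase-activating protein, had 120.2, 103 and 67.2 CPM against 5.12, 3.29 and 2.92 (adjusted p = 0.0544 with the block and 0.00576 without).

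The chromatin proteins and tubulins named here had reads in every library of both classes. Of 16 chromatin and nuclear envelope genes, 5 rose without the block and 13 lay higher, with a median of 1.11. HMGB2, a DNA-bending protein, had 684, 476 and 373 CPM against 52.2, 55 and 15.8. TMPO, the lamina protein LAP2, had 351, 327 and 289 CPM against 28, 41.8 and 26.3, and LBR, the lamin B receptor, had 242, 157 and 259 against 70.0, 59.1 and 68.6. The difference in LBR was the smallest of these 3, at a log2 fold change of 1.71 (SE 0.17). H2AZ1, the variant histone H2A.Z, had 2868, 2653 and 2429 CPM against 1123, 1035 and 1034. No tubulin of 8 tested was called by edgeR with or without the block, 5 had an unadjusted p under 0.05, 5 were called by DESeq2, and 5 lay higher in all cycling libraries (median 1.15). TUBA1B had 454, 385 and 286 CPM against 52.2, 273 and 79.5, with the batch 2 library of other cells close to the cycling libraries. TUBB had 993, 875 and 657 CPM against 281, 515 and 327. Tubulins and H2AZ1 have near copies in the genome, between which reads could be split.

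Replication genes were higher in the same class. Of 36 licensing and fork genes, 13 rose without the block, 35 were called higher by DESeq2 and 33 lay higher in all cycling libraries, with a median of 3.10. MCM4, a subunit of the licensing helicase, had 126, 119 and 149 CPM against 12.2, 15.5 and 11.4 (log2 fold change 3.34, SE 0.25, adjusted p = 0.0882 with the block and 0.00494 without). ORC1 and ORC6 belong to the origin recognition complex. ORC1 had 24.3, 27.7 and 38.3 CPM against 0.667, 0.359 and 0.213, and ORC6 had 183, 106 and 119 against 1.03, 6.52 and 4.77. Of 12 nucleotide supply genes, 4 rose without the block and 10 lay higher, with a median of 1.21. TK1, thymidine kinase, had 184, 251 and 231 CPM against 22.4, 31.6 and 24.7 (adjusted p = 0.0544 with the block and 0.00494 without). RRM2, the regulated subunit of ribonucleotide reductase, had 311, 296 and 340.0 CPM against 3.73, 16.6 and 3.94. RRM1, its constant partner, had 452, 439 and 301 CPM against 122, 162 and 95.2, a smaller difference (log2 fold change 1.66 against 5.67). TYMS, thymidylate synthase, had 67.3, 94.9 and 85.6 CPM against 25.3, 27.6 and 16.

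Repair genes were also higher in cycling cells. Of 24 homologous recombination and Fanconi genes, 6 rose without the block and 17 lay higher, with a median of 3.01. BRCA1 had 200.1, 81.3 and 150.3 CPM against 3.21, 7.54 and 3.05 and BRCA2, a mediator of recombination, had 142, 116 and 146 against 2.09, 0.359 and 5.39. FANCG, of the Fanconi core complex, had 25.1, 13.5 and 16 CPM against 0.212, 0.0598 and 0.362, and XRCC2, another recombination factor, had 83.2, 45.7 and 35.6 against 5.24, 3.53 and 1.19. All 4 were called without the block (adjusted p from 0.0141 to 0.0475), and none of their libraries overlapped.

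Histone genes did not move one way. These histones are made in S phase, and most of their mRNAs end in a stem-loop bound by SLBP instead of a poly(A) tail. Of 15 members tested, 4 lay higher and 4 lower in all cycling libraries, 1 rose without the block, and the median was -0.33. H4C3, which rose, had 1890.0, 1097 and 1545 CPM against 174, 216 and 257 (log2 fold change 2.79, SE 0.25; adjusted p = 0.00662 without the block). H2BC21 had 14.6, 14.5 and 16.5 CPM against 113, 32.5 and 110.2, the opposite direction (-2.30, SE 0.46, adjusted p = 0.0901 without the block and 1.2e-06 with DESeq2). H2AC6 had 62.2, 36 and 12.5 CPM against 176, 71.5 and 80.5, also lower in each batch. SLBP had 79.1, 52.1 and 63.9 CPM against 37.1, 33.3 and 56 and overlapped between the classes.

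Members of the E2F and RB families did not all move one way. Of 17 tested, 2 rose without the block (E2F7 and E2F8), 9 lay higher and 3 lower, with a median of 0.78. E2F1, an activator named after its values were seen, had 3.07, 4.05 and 3.01 CPM against 0.121, 2.57 and 0.0213, with the batch 2 library of other cells near the cycling ones. CCNE2, a cyclin that opens S phase, also named after its values were seen, had 70.7, 41.1 and 30.9 CPM against 3.61, 17.8 and 1.56. RBL2, the p130 repressor of resting cells, had 69.7, 49.9 and 69.8 CPM against 88.2, 110.4 and 102 and did not pass any of the 3 tests (adjusted p = 0.337 without the block) although its libraries did not overlap. Among 17 G1 cyclins and CDK inhibitors, no gene was called by edgeR, 3 had an unadjusted p under 0.05, DESeq2 called 1 higher and 2 lower, and 1 lay higher and 2 lower in all cycling libraries (median -0.28). Without the cells above 20% mitochondrial reads that median was 0.21. The log2 fold changes of the 17 ran from -1.02 to 4.87, so the largest shift was a rise. The 2 lower genes were BTG1, an antiproliferative factor, with 65.3, 67.4 and 65 CPM against 125, 119.7 and 122, and CCNG2, a cyclin of arrested cells, with 112, 64.1 and 86.2 against 173, 149 and 199. DESeq2 called both lower (adjusted p = 0.00253 and 0.00149).

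Of 21 p53 target genes, none was called by edgeR with or without the block and 3 had an unadjusted p under 0.05. In all cycling libraries 1 lay higher and 5 lower (median -0.35), beside 10.1% and 6.96% of all genes. DESeq2 called 2 lower, beside 2.2% of all genes. The 2 were SESN1, a stress-induced inhibitor of mTORC1, with 62.6, 37.8 and 29.3 CPM against 207, 80.5 and 175, and SAT1, a polyamine acetyltransferase, with 563, 661 and 547 against 882, 1025 and 1169.8.

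Genes of the androgen program were mostly lower in cycling cells. Androgen signalling maintains the secretory identity of luminal prostate cells and of this line. Of 19 members tested, 18 had a negative log2 fold change, 10 lay lower in all cycling libraries (6.96% of all genes did) and none lay higher. The median was -0.80. edgeR without the block called TMPRSS2 alone, DESeq2 called 7 lower, and 10 had an unadjusted p under 0.05. KLK3, prostate-specific antigen, had 724, 558 and 622 CPM against 717, 813 and 1247, and its groups overlapped. STEAP2, a metalloreductase, had 2217, 2824 and 2787 CPM against 3585, 3020.1 and 4908. Named after their values were seen, KLK2, a kallikrein, had 96.4, 76.9 and 58.3 CPM against 163, 139 and 133, and SLC45A3, prostein, had 5.31, 6.12 and 4.4 against 16.7, 14.1 and 13. DESeq2 called both lower (adjusted p = 0.00219 and 0.032), and neither overlapped between the classes. Without the cells above 20% mitochondrial reads the list's median was -0.84. In knockdown cells it was 0.07, and no member passed the test of the difference between arms.

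**Figure D4:**
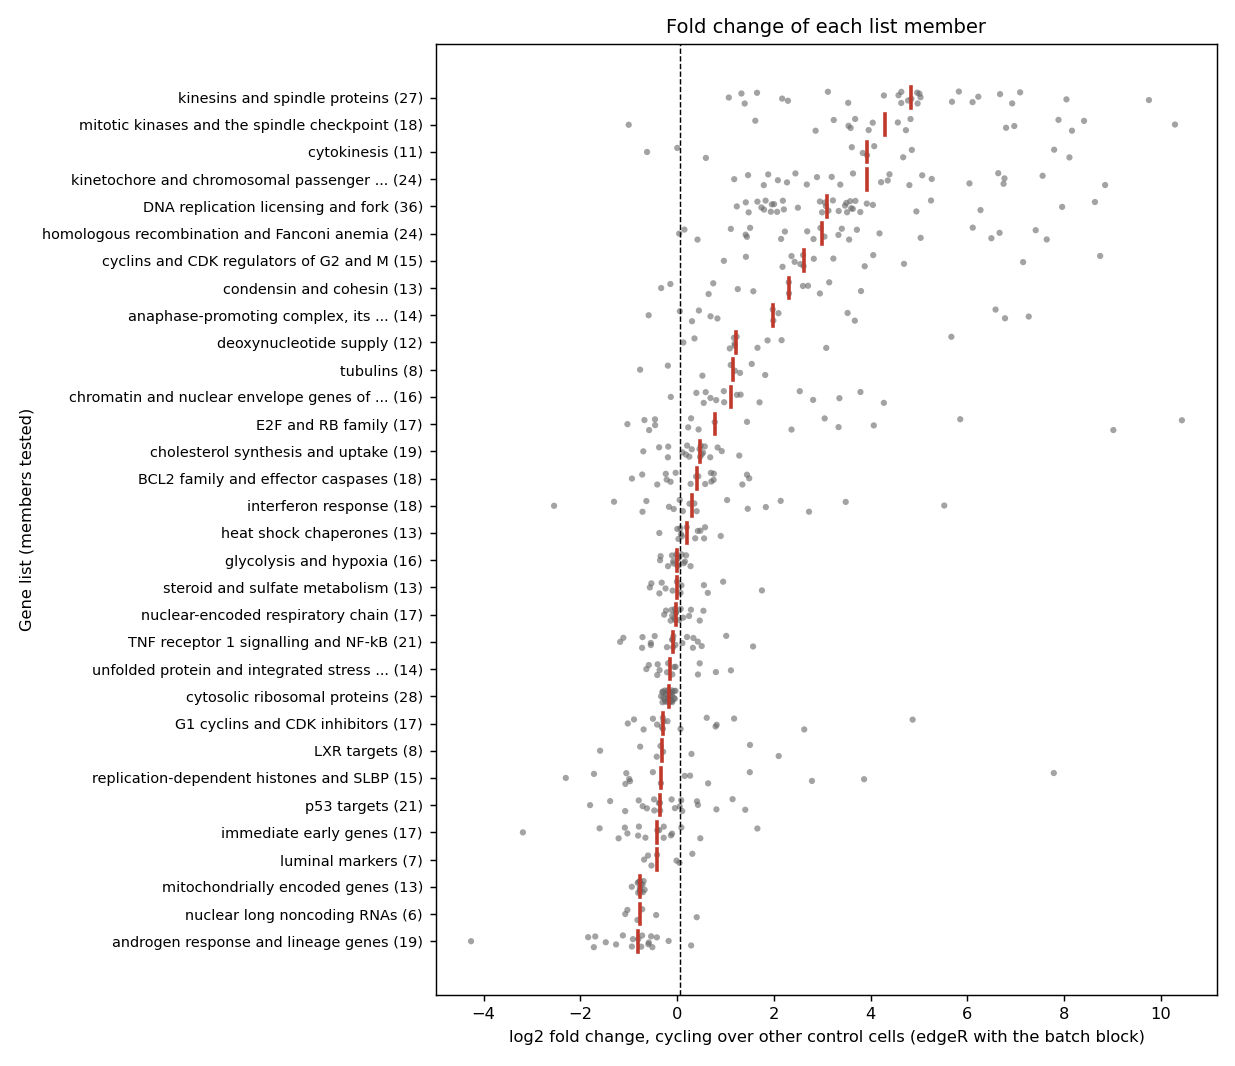
Each grey point is 1 tested member of a gene list with at least 6 members tested, placed by its log2 fold change between cycling and other control cells in the fit with the batch block, with a red bar at the list's median and a dashed line at the median of all genes (0.05). Among these lists, kinesins and spindle proteins have the highest median (4.85) and the androgen list the lowest (-0.80).

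The series title names TNF-driven cell death. Genes of that pathway and of sterol metabolism were mostly not called, and the same holds for genes at large. Without the block edgeR called 0.776% of all genes higher and 0.0292% lower, and DESeq2 called 4.93% higher and 2.2% lower. In all cycling libraries 10.1% of all genes lay higher and 6.96% lower. A list with few or no calls does not stand apart from all genes by that alone. Of 21 genes of TNF receptor 1 and NF-kB signalling, none was called by any of the 3 tests and none lay apart in all libraries, with 1 at an unadjusted p under 0.05 (median -0.08). BIRC2, the ubiquitin ligase cIAP1, had 65.6, 58.3 and 102 CPM against 24.9, 20.6 and 92.7, and XIAP, a caspase inhibitor, had 79.7, 64.6 and 70.5 against 133, 111 and 75.8. Of 18 BCL2 family and caspase genes, edgeR called none and 3 had an unadjusted p under 0.05. DESeq2 called 1 of them, PMAIP1, which encodes NOXA, with 76.4, 32.4 and 40.3 CPM against 34.9, 11.1 and 15.5 (adjusted p = 0.000588). Of 19 cholesterol genes, edgeR called none with or without the block, DESeq2 called 1 higher and 1 lower, 4 had an unadjusted p under 0.05, and 4 lay higher and 1 lower in all cycling libraries (median 0.47). Neither the 13 genes of steroid and sulfate metabolism nor the 8 LXR targets held a member called by edgeR or DESeq2, and 0 and 1 of them had an unadjusted p under 0.05. Of 18 interferon response genes tested, 3 lay higher and 1 lower (median 0.31), beside 10.1% and 6.96% of all genes. None was called by edgeR, 2 were called higher by DESeq2 (4.93% of all genes were) and 3 had an unadjusted p under 0.05. With so few members, these counts are not read as a trait of the list.

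Mitochondrial transcripts and some nuclear noncoding RNAs had lower levels in cycling cells. All 13 mitochondrially encoded genes had a negative log2 fold change (median -0.77), and none was called by any of the 3 tests or had an unadjusted p under 0.05. MT-CO1, a subunit of cytochrome oxidase, had 13446, 14094 and 10996 CPM against 48681, 17510.3 and 13305, with the high library in batch 1. The medians within batches 1, 2 and 3, on the log2(CPM + 1) scale, were -1.86, -0.33 and -0.16. Without the cells above 20% mitochondrial reads the fitted median was -0.22. Of 6 nuclear noncoding RNAs, DESeq2 called 3 lower, among them MALAT1 with 14493, 9251 and 14662 CPM against 32026, 14168 and 23804 and NEAT1, the paraspeckle scaffold, with 1231, 916 and 1464 against 3412, 1378 and 2971. The median of these 6 was -0.77, and -0.56 without the cells above 20% mitochondrial reads. Within batches 1, 2 and 3 it was -1.18, -0.60 and -0.48 on the log2(CPM + 1) scale. Of 28 ribosomal protein genes, all had a negative log2 fold change (median -0.17) and 6 lay lower, beside 6.96% of all genes. An unadjusted p under 0.05 was found for 5, and none was called by any of the 3 tests. Without TMM scaling the median of all genes moved from 0.05 to 0.16, a shift of the same size as the medians of several of these lists. The median of 17 nuclear-encoded respiratory genes was -0.03, that of 16 glycolysis and hypoxia genes 0.01, and that of 13 heat shock chaperones 0.20. Of the 13 chaperones, 12 had a positive log2 fold change and 5 lay higher in all cycling libraries, beside 10.1% of all genes. An unadjusted p under 0.05 was found for 5, with none called by any of the 3 tests. HSP90AA1, the inducible chaperone, had 2723, 2492 and 2475 CPM against 1639, 1999.5 and 1604 and did not pass the tests. The medians of 14 unfolded protein genes and 17 immediate early genes were -0.14 and -0.41, with 4 and 1 at an unadjusted p under 0.05 and no edgeR call in either. DESeq2 called 1 unfolded protein gene higher and 1 immediate early gene lower.

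Both classes carried luminal markers. Summed over 7 luminal markers, the level was 465 to 506 CPM in cycling libraries and 543 to 613 in the others. CDH1, E-cadherin, had 217, 185 and 183 CPM against 272, 274 and 232, and KRT8, a luminal keratin, had 38.3, 45.9 and 30.9 against 55.1, 66 and 45. The 4 basal markers with a row, of 6, summed to 24.2 to 44.7 CPM against 20.9 to 41.5. The 5 neuroendocrine markers summed to 10.7 to 17.0 CPM against 9.99 to 23.6, and the 8 mesenchymal markers to 169 to 212 against 175 to 344. Blood and endothelial markers summed to 1.09 to 2.77 CPM against 0.359 to 16.6, and PTPRC, the pan-leukocyte marker, was at 0 in every library.

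The same rule was applied to knockdown cells, which share no cell with the control arm. It called 17 of 66, 18 of 65 and 20 of 61 cells cycling, a mean of 28.7% ± 3.63 (SD, n = 3 batches). At least 5 of the 10 S phase genes reached 10 CPM in 11 of 17, 6 of 18 and 10 of 20 of these cycling cells. The mean share was 49.3% ± 15.7 (SD, n = 3 batches), against 75.2% ± 6.25 in control cycling cells. The mix within the class thus differed between arms, and the part of this in the fold changes below was not tested. In knockdown cells 17 of 17624 genes were called with the batch block (0.0965%), 16 higher and 1 lower, and 11 of the 17 were among the 138 genes called in control cells without the block. All 133 genes that rose in control cells without the block had a positive log2 fold change in knockdown cells, and all 5 that fell had a negative one. Both arms were cut with the same 6 genes, so this similarity is not independent of the rule. KPNA2 had a log2 fold change of 2.46 in knockdown cells against 2.81 in control cells, and TK1 had 2.85 against 3.09. TMPRSS2 had -0.25 against -1.69. For the test of the difference between arms, an interaction term of edgeR over 20298 genes, no gene was called (0%; smallest adjusted p = 0.827), with 1079 at an unadjusted p under 0.05. The interaction was not fitted with another tool.

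**Figure D5:**
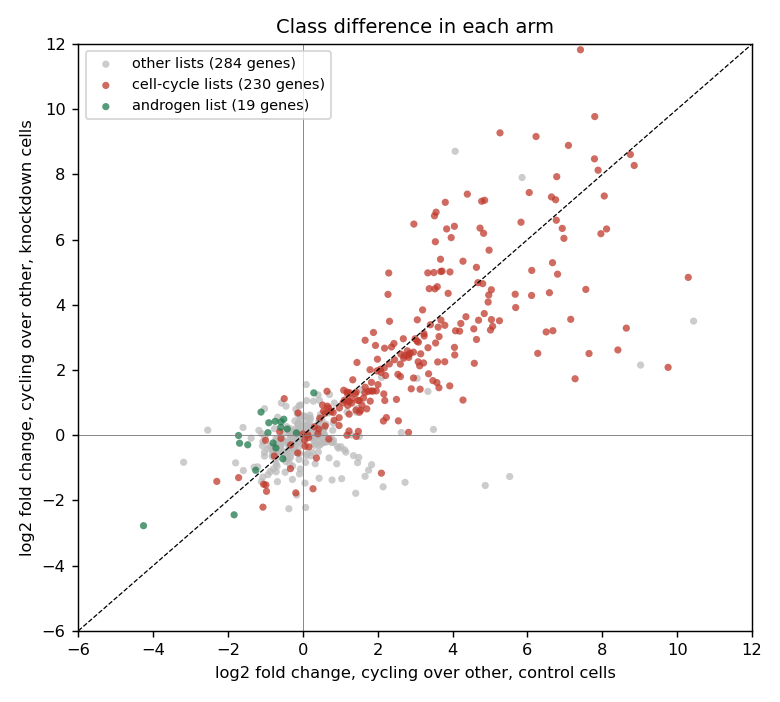
Each point is 1 list member, with its log2 fold change between cycling and other cells in control cells on the x axis and in knockdown cells on the y axis; the dashed line marks equal values. The 230 cell cycle list members tested in both arms (red) spread to the upper right, and the 19 androgen list members (green) lie mostly left of 0 on the x axis and on both sides of 0 on the y axis.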

How the data were processed

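The deposited table holds 1 count of reads per gene and cell for 36135 genes, made by the authors with TopHat2 2.1.0, HTSeq 0.6.1 and FastQC 0.11.3 against GRCh38.p3, per the submitters' processing notes, which also name edgeR 3.2.2. Those notes do not give the strand setting of the counting. Dead cells and capture sites without exactly 1 cell were left out before sequencing, per the labels' protocols. For 1 control cell no column was matched and it is not analysed here, 4 value columns matched no sample and were not used, and no columns were identical (0). A name table gave 34891 gene names and GENCODE 29 gave 257, which leaves 987 genes unnamed.

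The counts of each class were summed per batch into 6 libraries, and the 3 batches of the labels were the replicates. The 6 genes of the rule stayed in library sizes and out of the tests. The test was edgeR 4.0.16's robust quasi-likelihood test with TMM scaling, a minimum count of 10 in its low-count filter, batch as a block and Benjamini-Hochberg adjustment at 0.05. R 4.3.3, limma 3.58.1, DESeq2 1.42.0, Python 3.11.15, numpy 2.4.6, pandas 2.3.3, scipy 1.17.1 and matplotlib 3.10.9 were used. A standard error is the absolute log2 fold change over the square root of F. Counts of at most 3 reads are compared by an exact 95% interval of the ratio, and a count of 0 allows a share of 3 cells of the total. The script was tested on simulated data with known changes and a spread set below that of the real libraries (common dispersion 0.528 in edgeR). That check does not show how the test behaves at the real spread.

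Batch comes from the labels, and classes of 1 batch share its cells' preparation. Deviations of the paired libraries from their class means correlated at 0.0731, 0.0689 and 0.0202 for batches 1, 2 and 3. Promoters came from the RefSeq table of GRCh38.p14, with 27305 windows of 300 bases after the first entry per symbol.

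The named genes are the 12 largest rises and falls among genes past the adjusted p of 0.05, with 1 direction over the batches and a mean level of 5 CPM or more. Of each list up to 4 members were named, called genes first and then those with the highest level, and SULT2B1 and the 6 genes of the rule were added. KLK2, SLC45A3, E2F1, MCM4, CCNE2 and H2AZ1 were chosen after their values were seen. The cell classes, the 36 gene lists (594 members) and the tests were chosen with earlier results of these data known. Of these members 12 had no row of counts, and others did not pass the low-count filter. Alternatives covered the block, the tool, the scaling, the low-count filter, each batch, the class rule, thinning to 300000 reads, cells with poor RNA, equal weight per cell with limma, and a spread shared by both arms. Those without TMM scaling, and without batch 1 together with the cells above 20% mitochondrial reads, were chosen after seeing the data, as were the use of the naming rule on the calls without the block and the share of cycling cells without cells under 6000 genes. Some genes are not reported here.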

Additional observations from a re-analysis of the deposited data

How the results depend on the processing

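The number of genes called between cycling and other control cells depended strongly on the processing, and the cause was not tested. Against 1 gene with the batch block, 138 were called with no replicate block, 1208 by DESeq2, 147 with equal weight per cell, 88 with a spread shared by both arms, 62 with no filter on low counts and 41 without TMM scaling. Leaving out cells gave 18 without those above 20% mitochondrial reads, 17 without those under 6000 genes and 22 without other cells that carried S phase genes. The class rule after thinning to 300000 reads gave 15, and a limit of at least 2 of the 6 genes gave 0 (1365 at an unadjusted p under 0.05 in edgeR). A fit without a batch has fewer libraries, and the part of that was not tested. Without replicate 1, 2 or 3 the count was 0 each time, with 1152, 1522 and 1098 genes at an unadjusted p under 0.05. Without batch 1 and without cells above 20% mitochondrial reads it was 0 (1165 unadjusted). It stayed at 1 with DESeq2's size factors in edgeR and with at least 4 of the 6 genes. Over the 102 tested genes that the text follows through these fits, the direction held in all 1632 alternative values; 328 of these passed the threshold where the blocked fit did not, and the 5 that lost it were KPNA2. Those 5 were without each batch, at 2 of the 6 genes, and without batch 1 and high-mitochondrial cells. These fits reuse the same cells, so the shared direction is not independent evidence. No test of the difference between arms called a gene in any alternative run (0). The mean share of cycling cells ranged from 48.6% to 68.2% over the alternatives, against 56.4% by the rule. With at least 2 of the 6 genes it was higher in each batch (64.5%, 89.4% and 50.7% against 48.7%, 77.3% and 43.3%). The SD of 18.3 given with that share is the spread between batches and does not measure this range. Without TMM scaling the median log2 fold change of all genes was 0.16 instead of 0.05. The precision rests on 3 batches, with 15 other cells in batch 2.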

Other observations

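Of the 133 genes that rose in cycling control cells without the batch block, 53 belonged to none of the 36 lists. Those named here were chosen after their values were seen, and levels are means over the 3 libraries of a class. ASF1B, a histone chaperone, had 29 CPM in cycling libraries and 0.295 in the others. NASP, another histone chaperone, had 256 against 107, and HAT1, a histone acetyltransferase, had 361 against 126. Their log2 fold changes were 6.74 (SE 0.66), 1.24 (SE 0.20) and 1.56 (SE 0.24). CDC7 and its activator DBF4, which together fire replication origins, had log2 fold changes of 2.53 (SE 0.31) and 2.06 (SE 0.26). CHEK1, the kinase of the replication checkpoint, had 3.51 (SE 0.51). UBE2T, the ubiquitin carrier of the Fanconi pathway, averaged 359 CPM against 47.2 (log2 fold change 2.91, SE 0.15, adjusted p = 0.0544 with the block and 0.00494 without, by edgeR's quasi-likelihood test).

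FAM83D, a spindle protein, averaged 60.9 CPM in cycling libraries and 0.423 in the others (log2 fold change 7.05, SE 0.62). KNTC1 and SPDL1, which bring dynein to kinetochores, had log2 fold changes of 5.31 (SE 0.59) and 2.27 (SE 0.33). CSE1L, which returns importin alpha to the cytoplasm, averaged 521 CPM against 262 (log2 fold change 0.99, SE 0.10), a smaller difference than that of its cargo KPNA2. CKS1BP3, a pseudogene of CKS1B, averaged 35.1 CPM against 5.47, and reads of the parent gene cannot be told apart from it. The noncoding RNA HELLPAR averaged 50.8 CPM against 1.15, with a log2 fold change of 5.37 in control and 0.98 in knockdown cells. No gene passed the test of the difference between arms, HELLPAR included.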
